A study of Mus musculus with 12 samples.

Results

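The stress genes described here are Cdkn1a, Mdm2, Ccng1, Trp53, Bax, Bbc3, Gadd45a, Gadd45b, Gadd45g and Bcl2l1, measured by RNA sequencing in mouse hearts. They are 10 of the 17397 genes in the deposited count table, matched by gene symbol, and all 10 passed the filter on low counts that left 12778 genes for testing. They were picked by name with their levels in all 12 libraries already known, so the values of the 10 are given as a description and carry no test. Every group consisted of male wild-type C57BL/6J mice, 8 weeks old at the start, and held 3 libraries. Tumour trained mice were injected in the tail vein with 100000 cells of B16F10, a melanoma line derived from C57BL/6 mice, and ran on a treadmill. Tumour mice received the same cells and stayed in their cages. Trained mice ran without receiving the cells. Control mice, labelled saline, neither ran nor received them. Running took place on 5 days a week for 4 weeks, and after a week of adaptation a session was 5 min at 6 m/min followed by 35 min at 12 m/min. The cells were given from week 2 by a route that seeds mainly the lung, and the series title names wasting (cachexia) under metastatic melanoma as the setting. The labels do not say whether each library came from a separate mouse, so the spread between libraries may be partly technical.

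The transcription factor p53, encoded by Trp53, is held at a low level by the ubiquitin ligase Mdm2 and accumulates after DNA damage and other stress, largely through slower protein breakdown rather than more mRNA. Its targets include Cdkn1a, which encodes the cyclin-dependent kinase inhibitor p21, Mdm2 itself, Ccng1 (cyclin G1) and the cell death genes Bax and Bbc3 (PUMA), whereas Bcl2l1 encodes BCL-XL, which holds BAX in check at the mitochondrion. The Gadd45 genes encode small proteins that bind p21, PCNA and the stress kinase MAP3K4. Heart muscle cells of adult mice rarely divide, and Cdkn1a and the Gadd45 genes can also be induced without p53, for example by growth factors and inflammatory signals.

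Start-site windows are given first as background, with those of Cdkn1a, Ccng1 and Gadd45g printed in full. A link between the letters of a window and the levels of its gene was not tested. RefSeq sequences of build GRCm38.p6, reaching from 250 bases before to 50 bases after each annotated start, matched all 10 genes with 15 windows, of which windows 2 and 3 of Bbc3 overlap. Cdkn1a has the windows chr17:29090729-29091028 and chr17:29093519-29093818 on the plus strand, Ccng1 has chr11:40755237-40755536 on the minus strand and Gadd45g has chr13:51846425-51846724 on the plus strand. Each is written 5′ to 3′ along the gene, and capitals mark p53 half-sites and full sites, GC boxes and TATA boxes.
Cdkn1a, first start: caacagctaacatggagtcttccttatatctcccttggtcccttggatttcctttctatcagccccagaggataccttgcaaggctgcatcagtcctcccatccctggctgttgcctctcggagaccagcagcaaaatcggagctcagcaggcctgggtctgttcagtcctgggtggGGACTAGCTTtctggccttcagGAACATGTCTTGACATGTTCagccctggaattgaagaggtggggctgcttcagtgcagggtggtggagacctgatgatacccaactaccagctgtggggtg
Cdkn1a, second start: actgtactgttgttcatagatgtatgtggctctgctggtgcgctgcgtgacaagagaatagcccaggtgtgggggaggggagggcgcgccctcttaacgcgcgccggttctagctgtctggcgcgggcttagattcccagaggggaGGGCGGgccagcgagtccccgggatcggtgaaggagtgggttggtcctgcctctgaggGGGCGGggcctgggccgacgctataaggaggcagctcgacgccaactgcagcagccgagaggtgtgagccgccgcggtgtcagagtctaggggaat
Ccng1: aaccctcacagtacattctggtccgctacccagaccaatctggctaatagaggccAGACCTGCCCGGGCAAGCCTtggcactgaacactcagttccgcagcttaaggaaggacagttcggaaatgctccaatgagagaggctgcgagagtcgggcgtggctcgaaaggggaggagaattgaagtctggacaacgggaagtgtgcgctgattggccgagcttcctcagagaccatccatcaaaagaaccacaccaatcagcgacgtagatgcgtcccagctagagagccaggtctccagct
Gadd45g: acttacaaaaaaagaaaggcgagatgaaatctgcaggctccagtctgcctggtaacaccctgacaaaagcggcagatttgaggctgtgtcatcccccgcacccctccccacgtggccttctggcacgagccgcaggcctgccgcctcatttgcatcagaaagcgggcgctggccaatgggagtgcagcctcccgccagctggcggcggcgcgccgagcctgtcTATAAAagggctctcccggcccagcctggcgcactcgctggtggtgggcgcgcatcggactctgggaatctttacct

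A p53 full site, taken as 2 copies of the 10-letter p53 half-site without a spacer and with at most 1 letter off, stood in 2 of the 15 windows, against 0.0883% of the 32851 windows of all genes in the RefSeq table. In the first Cdkn1a window it was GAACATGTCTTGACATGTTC, from base -51 to base -32 relative to the start, and in Ccng1 it was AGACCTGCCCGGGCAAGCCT, from base -195 to base -176. An exact half-site, which each of these full sites contains, was found in 6 of the 15 windows (Cdkn1a, Ccng1, Mdm2, Trp53, Bax and Gadd45a), against 8.36% of all windows. The GC box GGGCGG was present in 8 of the 15 windows and 35.7% of all windows. The TATA box TATAAA was present in 3 of the 15 windows (Gadd45g, Gadd45b and Trp53) and 13.6% of all windows. In Trp53 the letters lay on the opposite strand, at the upstream end of the window and far from the start. The cyclic AMP element TGACGTCA and the AP-1 site TGANTCA were in none of the 15 windows, against 1.79% and 7.81% of all windows. Both strands were searched, and a match describes these letters only, not binding.

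The libraries held between 8843906 and 13344847 counts, so that 3 counts, taken as the detection floor, correspond to 0.179 to 0.353 CPM scaled by TMM (scaled CPM, the share of a library's counts after correction for its composition and the unit of every level given here). Libraries 1 and 2 of the tumour group stood apart. All 6 melanocyte markers (Dct, Mlana, Pmel, Sox10, Tyr and Tyrp1) were detected, and their sum took 0.00054 to 0.00089% of the counts in tumour trained hearts, 1.12% (95% Wilson interval 1.118 to 1.13), 0.513% (0.5087 to 0.5164) and 0.00169% (0.001472 to 0.001951) in tumour libraries 1, 2 and 3, 0.000687 to 0.000724% in trained hearts and 0.000605 to 0.00104% in control hearts. Tyrp1 was at 0 in every library of the tumour trained, trained and control groups. The intervals cover counting error only. The 10 cardiomyocyte markers took 2.83%, 6.99% and 11.1% of the counts in tumour libraries 1, 2 and 3, and 10.9 to 11.9% in the other 9 libraries. The 7 proliferation markers took 0.115% and 0.0369% in tumour libraries 1 and 2 and at most 0.00133% in each of the other 10. Control libraries 2 and 3 stood apart in a different way, since the 12 immediate early genes, which respond to stimulation within minutes, took 0.176% (0.1732 to 0.1782) and 0.162% (0.1596 to 0.1646) of their counts and 0.025 to 0.0763% in each of the other 10 libraries. Endothelial markers took 0.0366 to 0.0973% in tumour hearts and 0.0922 to 0.113% elsewhere, fibroblast markers 0.0558 to 0.111%, immune markers 0.0131 to 0.0333% and erythrocyte markers 0.0539 to 0.332% in any library. The extraction label names livers although the tissue label names heart, and the 4 hepatocyte markers took at most 0.000601%. Trained library 2 differed from trained libraries 1 and 3 by a chi-square of 29.0 and 31.2 per gene, against 4.2 between those 2. Some of the results that rest on these libraries, but not all, are given below with and without them. A fit with tumour library 3 or control library 1 as the only library of its group assumes that it varies as the others do. Tumour libraries 1 and 2, 1 and 3, and 2 and 3 differed by a chi-square of 152, 370 and 103 per gene. The largest value in any other group was 31.2. With tumour library 3 alone the SE comes from the other groups, so it can be too small.

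**Figure D1:**
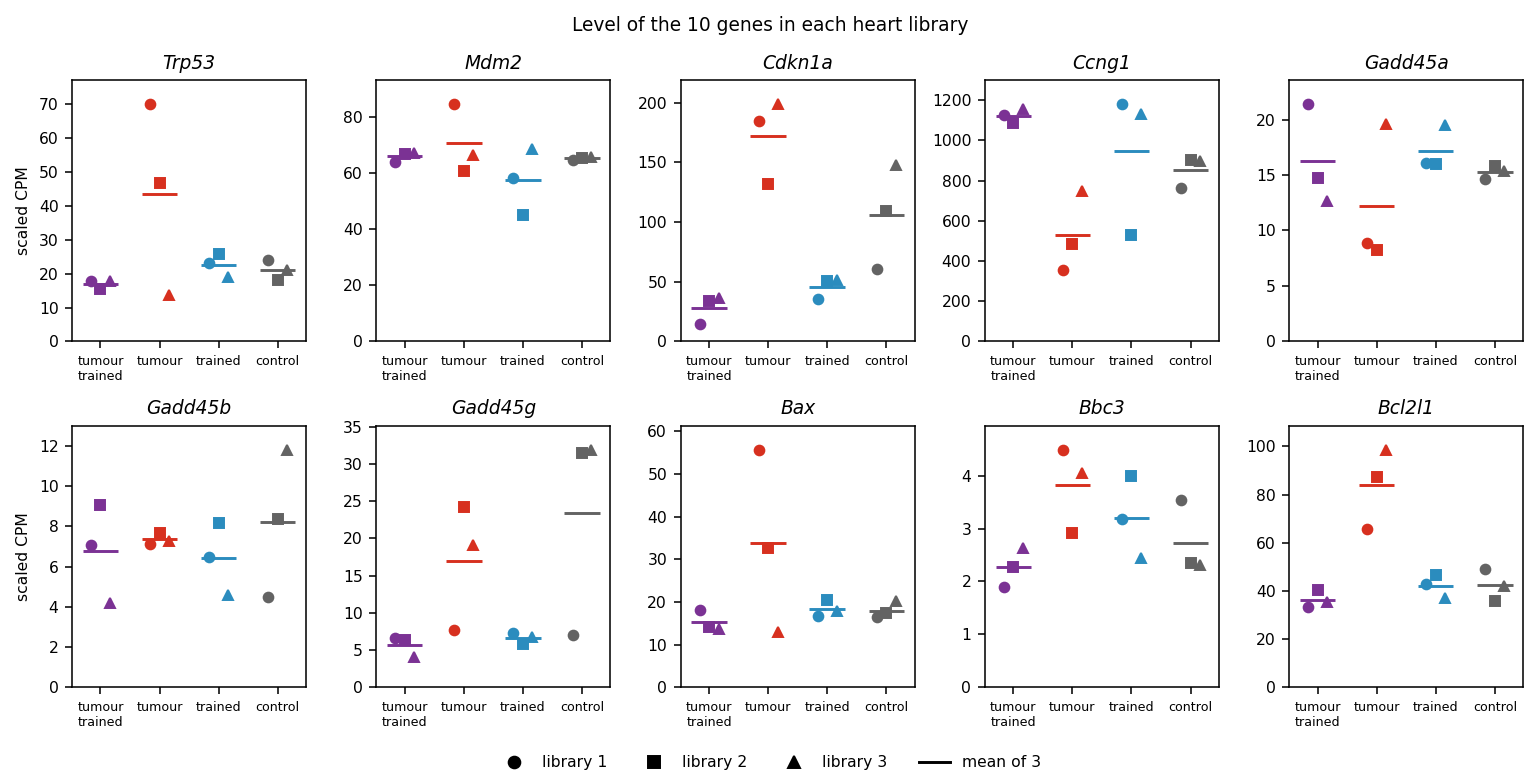
Level of each of the 10 genes in every heart library, in scaled CPM on a linear axis that starts at 0. Symbols mark libraries 1, 2 and 3 of a group and the bar is the mean of 3; Cdkn1a and Bcl2l1 are high in all 3 tumour libraries, whereas Trp53 and Bax are high only in tumour libraries 1 and 2.

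Trp53 itself was high in only 2 of the 3 tumour hearts. It stood at 17.7, 15.5 and 17.8 scaled CPM in tumour trained hearts, at 70.1, 46.9 and 13.7 in tumour hearts, at 23.2, 25.8 and 19.0 in trained hearts and at 23.9, 18.1 and 21.1 in control hearts. Tumour libraries 1 and 2, which carry the melanocyte transcripts, were therefore above all other libraries and tumour library 3 was below them all. The fitted log2 difference was 1.05 ± 0.42 (SE) for tumour against control and -1.36 ± 0.42 for tumour trained against tumour. With library 3 as the only tumour library it was -0.61 ± 0.22 and 0.30 ± 0.22, the opposite direction in both. In a whole-heart extract fewer cells of a type and less RNA per cell cannot be told apart, and neither can Trp53 mRNA of heart and of melanoma cells; the part of the melanoma transcripts in these differences was not tested. Tumour trained hearts lay below trained and below control hearts by a small margin, with a highest value of 17.8 against lowest values of 19.0 and 18.1, and fitted log2 differences of -0.41 ± 0.42 and -0.31 ± 0.42. In order of group means, tumour (43.6 ± 28.4, SD, n = 3) overlapped trained (22.7 ± 3.39), and trained overlapped control (21.1 ± 2.92).

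Mdm2, at once a p53 target and its main inhibitor, was close to level. It stood at 63.9, 66.6 and 67.2 scaled CPM in tumour trained hearts, 84.5, 60.8 and 66.5 in tumour hearts, 58.3, 45.1 and 68.6 in trained hearts and 64.6, 65.3 and 65.5 in control hearts. Every pair of groups overlapped, and the highest and the lowest value were those of tumour library 1 and trained library 2. The fitted log2 differences were 0.12 ± 0.17 for tumour against control, -0.10 ± 0.17 for tumour trained against tumour and -0.18 ± 0.17 for trained against control.

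Cdkn1a was the member with the widest separation between the tumour groups. It stood at 14.3, 33.7 and 36.8 scaled CPM in tumour trained hearts, at 185, 132 and 199 in tumour hearts, at 35.2, 50.7 and 51.3 in trained hearts and at 60.5, 109 and 148 in control hearts. All tumour trained libraries were below all tumour libraries, at a highest value of 36.8 against a lowest of 132. The fitted log2 difference for tumour trained against tumour was -2.61 ± 0.39, and it was -2.84 ± 0.45 with tumour library 3 alone and -2.59 ± 0.36 with control library 1 alone. Both groups that ran were also below the controls without overlap, with log2 differences of -1.90 ± 0.38 for tumour trained against control and -1.21 ± 0.37 for trained against control. Tumour against control was 0.71 ± 0.37, with overlapping groups, since control library 3 exceeded tumour library 2.

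The 2 control libraries with more Cdkn1a were those with the high immediate early share. Control library 1, with 0.0251% of its counts from immediate early genes, held 60.5 scaled CPM of Cdkn1a, whereas libraries 2 and 3, with 0.176% and 0.162%, held 109 and 148. With library 1 as the only control the log2 difference was 1.48 ± 0.52 for tumour against control, -0.41 ± 0.47 for trained against control and -1.10 ± 0.46 for tumour trained against control. The difference between the effect of training in mice with and without melanoma cells (the interaction) was -1.40 ± 0.52, and -2.18 ± 0.63 with control library 1 alone. The part of the immediate early genes in the Cdkn1a levels was not tested. Group means were 28.2 ± 12.2 in tumour trained, 172 ± 35.4 in tumour, 45.7 ± 9.11 in trained and 106 ± 43.7 in control hearts (SD, n = 3 each), and in that order of levels tumour overlapped control and trained overlapped tumour trained.

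Ccng1, whose product recruits a phosphatase to Mdm2, ran the other way. It stood at 1128, 1087 and 1156 scaled CPM in tumour trained hearts, at 354, 486 and 747 in tumour hearts, at 1181, 528 and 1130 in trained hearts and at 765, 900 and 897 in control hearts. All tumour trained libraries were above all tumour and all control libraries, and all tumour libraries were below all control libraries. The fitted log2 difference was 1.09 ± 0.33 for tumour trained against tumour, -0.69 ± 0.32 for tumour against control and 0.40 ± 0.32 for tumour trained against control. Within the tumour group Ccng1 was lower where the cardiomyocyte markers were lower, at 2.83%, 6.99% and 11.1% of counts in libraries 1, 2 and 3; with library 3 as the only tumour library the first 2 differences were 0.57 ± 0.33 and -0.18 ± 0.33. The part of the cardiomyocyte share was not tested. Trained library 2, which stands apart from the other trained libraries, was also the low one for Ccng1, and trained hearts overlapped both tumour trained and control hearts.

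Cdkn1a and Ccng1, the members with a p53 full site in a start-site window, had fitted differences of opposite sign in both comparisons of the tumour group. Tumour trained hearts held less Cdkn1a and more Ccng1 than tumour hearts. Tumour hearts averaged 172 ± 35.4 scaled CPM of Cdkn1a, against 106 ± 43.7 in control hearts, and 529 ± 200 scaled CPM of Ccng1, against 854 ± 77.2 in control hearts (SD, n = 3 each). In that comparison Cdkn1a overlapped between the groups, and with tumour library 3 alone the difference of Ccng1 was only -0.18 ± 0.33. The part of p53 in the levels of either gene was not tested.

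**Figure D2:**
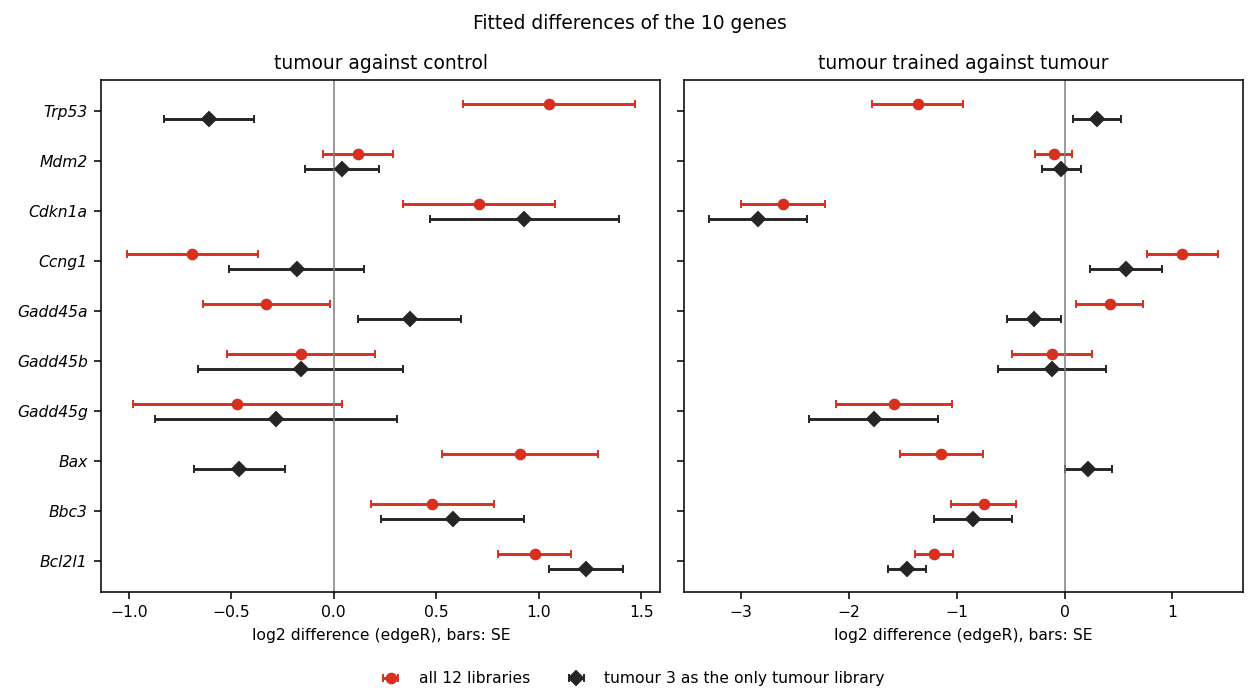
Fitted log2 difference of each of the 10 genes with its SE (bars), for tumour against control hearts on the left and tumour trained against tumour hearts on the right. Red points use all 12 libraries and black diamonds keep tumour library 3 as the only tumour library; Trp53, Bax and Gadd45a change side of 0 between them, whereas Cdkn1a and Bcl2l1 do not.

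The 3 Gadd45 genes differed in which libraries were high. Gadd45g stood at 6.65, 6.36 and 4.00 scaled CPM in tumour trained hearts, at 7.66, 24.2 and 19.1 in tumour hearts, at 7.30, 5.81 and 6.70 in trained hearts and at 6.99, 31.5 and 31.9 in control hearts. Control libraries 2 and 3 and tumour libraries 2 and 3 were between 19.1 and 31.9, and the remaining 8 libraries were between 4.00 and 7.66. All tumour trained libraries were below all tumour and all control libraries. The fitted log2 differences were -1.58 ± 0.54 for tumour trained against tumour, -2.05 ± 0.54 for tumour trained against control and -1.83 ± 0.54 for trained against control, and tumour against control was -0.47 ± 0.51 with overlap. With control library 1 as the only control these became -1.56 ± 0.41, -0.30 ± 0.57, -0.09 ± 0.57 and 1.26 ± 0.61, so that the differences from the controls rest on control libraries 2 and 3, the pair with the high immediate early share. By group mean, control (23.5 ± 14.3) overlapped tumour (17.0 ± 8.48), and trained (6.60 ± 0.749) overlapped tumour trained (5.67 ± 1.46; SD, n = 3 each).

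Gadd45a stood at 21.4, 14.7 and 12.7 scaled CPM in tumour trained hearts, at 8.85, 8.21 and 19.6 in tumour hearts, at 16.1, 16 and 19.5 in trained hearts and at 14.6, 15.8 and 15.4 in control hearts. Its 2 lowest values were those of tumour libraries 1 and 2, and tumour library 3 was above all control libraries. Tumour against control was -0.33 ± 0.31 with all libraries and 0.37 ± 0.25 with tumour library 3 alone, and tumour trained against tumour was 0.42 ± 0.31 and -0.28 ± 0.25. Trained hearts were above control hearts without overlap, but by a gap of 16 against 15.8, and the fitted log2 difference was 0.17 ± 0.31. Gadd45b, with 40 to 119 counts per library, overlapped between every pair of groups, at 7.07, 9.06 and 4.21 scaled CPM in tumour trained hearts, 7.12, 7.66 and 7.29 in tumour hearts, 6.48, 8.15 and 4.58 in trained hearts and 4.50, 8.37 and 11.8 in control hearts. No difference of Gadd45b was detectable beyond the spread, the 2 tumour comparisons being -0.16 ± 0.36 for tumour against control and -0.12 ± 0.37 for tumour trained against tumour. With control library 1, its lowest control value, as the only control, the difference was 0.68 ± 0.48 for tumour against control and 0.51 ± 0.48 for trained against control. With all libraries trained against control was -0.35 ± 0.37, so both differences turned sign.

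**Figure D3:**
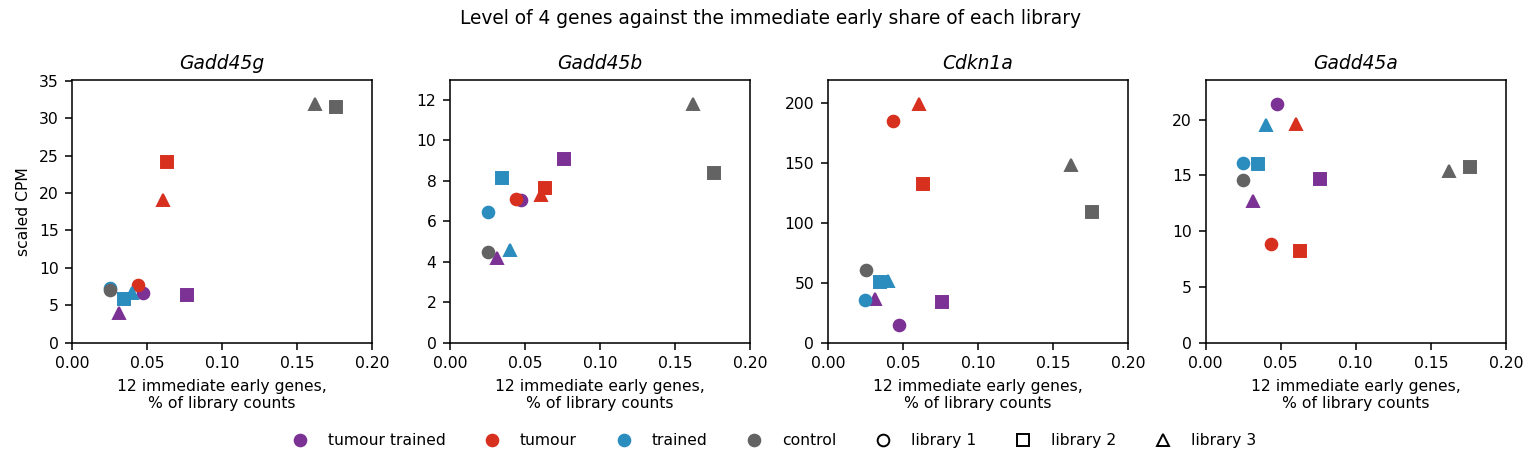
Level of Gadd45g, Gadd45b, Cdkn1a and Gadd45a in each library (scaled CPM) against the percentage of the library's counts that fell on 12 immediate early genes, with colours for groups and symbols for libraries 1, 2 and 3. Control libraries 2 and 3 lie apart at 0.176% and 0.162% and hold 31.5 and 31.9 scaled CPM of Gadd45g, whereas the tumour libraries reach 132 to 199 scaled CPM of Cdkn1a at 0.0437 to 0.0631%.

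Among the cell death genes, Bcl2l1 was the one that was high in all 3 tumour libraries and low elsewhere. It stood at 33.2, 40.5 and 35.5 scaled CPM in tumour trained hearts, at 65.7, 87.5 and 98.6 in tumour hearts, at 42.9, 46.7 and 36.9 in trained hearts and at 49.0, 36.0 and 42.2 in control hearts. All tumour libraries were above all other libraries, and the remaining groups overlapped one another. The fitted log2 difference was 0.98 ± 0.18 for tumour against control and -1.21 ± 0.18 for tumour trained against tumour. The highest value belonged to tumour library 3, where melanocyte markers took 0.00169% of the counts, against at most 0.00104% outside the tumour group. With that library alone the differences were 1.23 ± 0.18 and -1.46 ± 0.18. Over all 22 alternative settings the differences ran from 0.75 to 1.23 and from -1.46 to -1.05. The part of the melanoma transcripts in them was not tested. Trained against control was -0.01 ± 0.18 and tumour trained against control -0.22 ± 0.18, and the interaction was -1.20 ± 0.26.

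Bax, whose product opens the outer mitochondrial membrane, followed Trp53 instead. It stood at 18.1, 14.2 and 13.7 scaled CPM in tumour trained hearts, at 55.7, 32.6 and 13.0 in tumour hearts, at 16.6, 20.5 and 17.8 in trained hearts and at 16.4, 17.4 and 20.2 in control hearts. As with Trp53, tumour libraries 1 and 2 were above all others and tumour library 3 was the lowest of the 12. Tumour against control was 0.91 ± 0.38 with all libraries and -0.46 ± 0.22 with tumour library 3 alone, and tumour trained against tumour was -1.14 ± 0.38 and 0.22 ± 0.22. Bbc3, with only 18 to 75 counts per library, stood at 1.90, 2.27 and 2.63 scaled CPM in tumour trained hearts, at 4.49, 2.92 and 4.06 in tumour hearts, at 3.18, 3.99 and 2.45 in trained hearts and at 3.54, 2.34 and 2.31 in control hearts. Tumour trained hearts were below tumour hearts without overlap, by -0.75 ± 0.30 and by -0.85 ± 0.36 with tumour library 3 alone. Every other pair of groups that was compared overlapped for Bbc3.

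Counted over the 10 genes, tumour hearts had 1 gene above and 1 below all control libraries (Bcl2l1 and Ccng1), where 14.2% and 11.8% of all tested genes were above and below. Tumour trained hearts had 1 gene above and 4 below all tumour libraries (Ccng1, and Cdkn1a, Gadd45g, Bbc3 and Bcl2l1), where the shares over all tested genes were 13.5% and 14.5%. Trained hearts had 1 above and 1 below all control libraries (Gadd45a and Cdkn1a), against shares of 4.04% and 5.44%. Tumour trained hearts had none above and 1 below all trained libraries (Trp53), against 7.9% and 8.05%, and 1 above and 3 below all control libraries (Ccng1, and Cdkn1a, Trp53 and Gadd45g), against 21.9% and 17.4%. The median log2 difference of the 10 genes was 0.30 for tumour against control and -0.95 for tumour trained against tumour, beside 0.11 and -0.04 over all tested genes. Since the genes were chosen with these contrasts known, nothing is read from the counts or medians.

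The genes whose profiles over the 12 libraries were closest to Cdkn1a and Gadd45g were found by the root mean square difference of log2 scaled CPM relative to the control mean. For Cdkn1a these included Arid5a at 0.68, Litaf at 0.79, Zyx at 0.82 and Actg1 at 0.85. Unlike Cdkn1a, the last 3 were lowest in tumour library 3 of the tumour hearts. In tumour libraries 1, 2 and 3 Litaf stood at 125, 79.1 and 28.3 scaled CPM, Zyx at 158, 140 and 72.0 and Actg1 at 2382, 1296 and 409. Arid5a, an RNA-binding protein that stabilises inflammatory mRNAs, averaged 10.7 ± 2.29 scaled CPM in tumour trained, 20.1 ± 0.482 in tumour, 10.6 ± 1.17 in trained and 24.4 ± 10.6 in control hearts (SD, n = 3 each). For Gadd45g they were Agt at 0.55, Arid5a at 0.64, and Ier5, Slc16a13 and Egr2 at 0.65 each. Agt, which encodes angiotensinogen, averaged 5.71 ± 1.02 scaled CPM in tumour trained, 8.91 ± 4.62 in tumour, 5.99 ± 0.509 in trained and 14.6 ± 8.81 in control hearts. Arid5a is on both lists, and Egr2 and Ier5 are themselves early response genes.

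The wider p53 programme was examined with 35 other p53 target genes, of which 33 were tested by edgeR's quasi-likelihood test with Benjamini-Hochberg adjustment over all 12778 genes. In tumour against control hearts 6 rose and none fell, where 5.33% of all tested genes rose and 1.46% fell, and the median log2 difference of the list was 0.25 beside 0.11 over all genes. Ppm1d, which encodes the phosphatase WIP1 that switches p53 signalling off, rose by 0.75 ± 0.16 (edgeR adjusted p = 0.039). It stood at 18.4, 17.2 and 17.8 scaled CPM in tumour hearts, against 10.6, 10.6 and 10.4 in control hearts, with no overlap and little difference between the tumour libraries. Apaf1, the core of the apoptosome, rose by 1.89 ± 0.47 (edgeR adjusted p = 0.0451), and Zfp365 and Pidd1, a scaffold that activates caspase-2, rose by 4.03 ± 0.95 and 2.56 ± 0.67 (edgeR adjusted p = 0.0417 and 0.0467). Those 3 were high only where melanocyte transcripts were: Apaf1 stood at 57.5, 25.5 and 9.51 scaled CPM in tumour libraries 1, 2 and 3, against 9.00, 8.66 and 7.36 in control hearts. Zfp365 stood at 23.6, 8.56 and 0.554 in the tumour libraries and Pidd1 at 10.5, 6.33 and 0.831.

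These counts depended on single libraries. Without tumour library 3, 13 of 34 tested p53 targets rose and 5 fell in tumour against control hearts, where 30.2% of all tested genes rose and 22.8% fell. In the same fit 7 rose and 11 fell in tumour trained against tumour hearts, where 21.7% of all tested genes rose and 28.1% fell. The 18 called targets were thus 52.9% of the list in both comparisons, beside 53% and 49.8% of all genes. Without tumour library 1 the counts were 1 and 0 in the 2 comparisons (1.55% and 0.864% of all genes), and without trained library 2 they were 0 and 5 (0.0602% and 9.34% of all genes). Without any one of the other 9 libraries they were 0 and 0. There 12 to 16 and 11 to 13 p53 targets had an unadjusted edgeR p under 0.05, as did 23.9 to 31.7% and 23.1 to 30.0% of all genes. DESeq2 on all 12 libraries called 10 higher in tumour against control hearts, where 12.7% of all genes were called higher and 5.12% lower. In tumour trained against tumour hearts it called 2 higher and 8 lower, where the shares over all genes were 4.58% and 14.0%.

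With tumour library 3 as the only tumour library, 2 p53 targets rose and none fell in tumour against control hearts, and neither was among the 6 above; over all genes 0.87% rose and 0.531% fell. Sesn1, a stress-responsive inhibitor of mTORC1 signalling, rose by 1.22 ± 0.14 (edgeR adjusted p = 0.00167), and the death receptor gene Fas rose by 1.34 ± 0.23 (edgeR adjusted p = 0.018). Sesn1 stood at 69.2, 123 and 348 scaled CPM in tumour libraries 1, 2 and 3, against 144, 166 and 142 in control hearts, and Fas stood at 7.42, 18.2 and 29.6, against 12.4, 12.7 and 10.3. Library 3 was thus the highest for both and library 1 the lowest of the 6. These values describe a single heart library.

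In tumour trained against tumour hearts 4 p53 targets fell and 2 rose, where 7.25% of all tested genes fell and 1.79% rose, and with scaling by library size alone 7 fell and none rose, beside 11.4% and 1.82% of all genes. Sesn2, a relative of Sesn1, fell by 1.28 ± 0.27 on the log2 scale (edgeR adjusted p = 0.0357) and stood at 3.38, 2.48 and 2.95 scaled CPM in tumour trained hearts, against 8.85, 6.96 and 5.54 in tumour hearts. Apaf1, Zfp365 and Ckap2, a spindle protein, fell by 1.83 ± 0.47, 3.56 ± 0.92 and 4.33 ± 1.17 (edgeR adjusted p = 0.0408, 0.0408 and 0.0451). Eda2r, a receptor of the TNF receptor family, rose by 1.18 ± 0.32 and Rrm2b, the p53-inducible subunit of ribonucleotide reductase, by 0.84 ± 0.24 (edgeR adjusted p = 0.0468 and 0.0497). Rrm2b stood at 40.5, 47.7 and 42.1 scaled CPM in tumour trained hearts, against 28.3, 19.7 and 25.0 in tumour hearts. Trained hearts held 41.4, 22.5 and 42.3, and control hearts averaged 25.3 ± 3.51 (SD, n = 3). Eda2r averaged 4.21 ± 0.597 in tumour trained, 1.85 ± 0.473 in tumour, 3.56 ± 1.45 in trained and 2.05 ± 0.22 in control hearts. With tumour library 3 alone the difference of Sesn1 was -0.99 ± 0.14, a value that describes a single heart library. In trained against control, tumour trained against trained, tumour trained against control and the interaction, edgeR and DESeq2 called none of the 33, and 4, 1, 6 and 11 had an unadjusted edgeR p under 0.05, beside 2.18%, 1.17%, 6.46% and 14.4% of all genes.

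**Figure D4:**
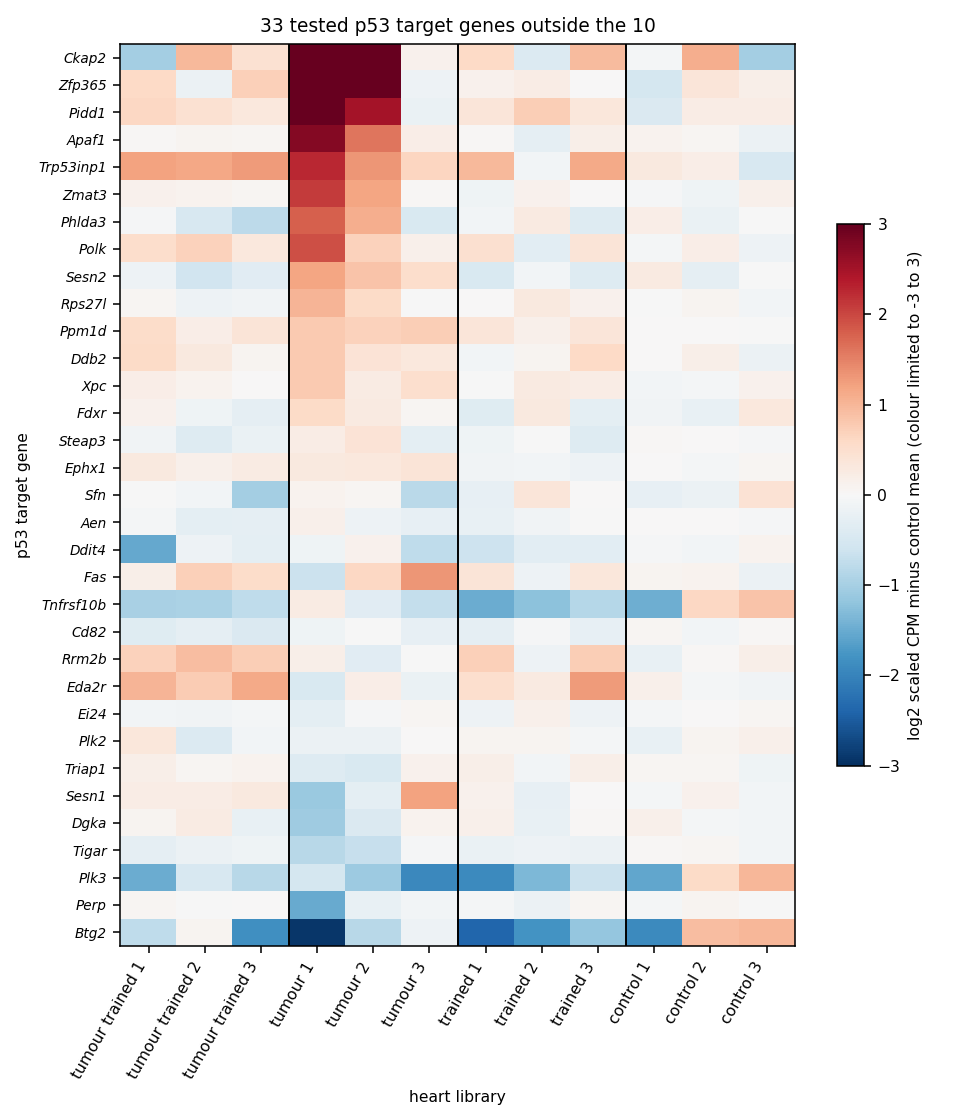
Level of the 33 tested p53 target genes outside the 10, as log2 scaled CPM minus the control mean, in each of the 12 heart libraries (colour, limited to -3 to 3; vertical lines part the groups). The top rows (Ckap2, Zfp365, Pidd1, Apaf1) are high in tumour libraries 1 and 2 and not in library 3, Sesn1 and Fas are highest in tumour library 3, and Ppm1d is high in all 3.

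Taken library by library, 17, 18 and 11 of the 33 p53 targets were above all controls in tumour libraries 1, 2 and 3, which is 51.5%, 54.5% and 33.3%, beside 48.2%, 45.4% and 31.9% of all tested genes. These shares were thus nearest to those of all genes in library 3. The shares below all controls were 33.3%, 21.2% and 27.3% of the p53 targets, beside 42.0%, 33.6% and 29.1% of all genes. The median log2 level relative to the control mean was 0.21, 0.24 and 0.02 for the list, beside 0.11, 0.09 and 0.02 for all genes.

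Of 20 genes that act on p53, 17 were tested by edgeR and none was called in tumour against control or in tumour trained against tumour hearts, where 3 and 2 of them had an unadjusted p under 0.05, beside 34.4% and 31.9% of all genes, and DESeq2 called none. Without tumour library 3 edgeR called 7 and 5 of 18, or 38.9% and 27.8%, below the 53% and 49.8% of all genes in that fit. Usp7, the deubiquitinase of Mdm2 and p53, differed by 0.62 ± 0.22 between tumour and control hearts (edgeR adjusted p = 0.0845) and Mdm4, the partner of Mdm2, by 0.88 ± 0.31 (edgeR adjusted p = 0.0857). With tumour library 3 alone these differences were 0.16 ± 0.20 and 0.22 ± 0.27. Usp7 stood at 149, 108 and 81.4 scaled CPM in tumour libraries 1, 2 and 3, against 70.0, 78.9 and 71.9 in control hearts.

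Of 16 other BCL-2 family genes 15 were tested. In tumour against control hearts edgeR called none, with 5 (33.3%) at an unadjusted p under 0.05 beside 34.4% of all genes, and DESeq2 called 3 higher (20%, beside 12.7% of all genes). In tumour trained against tumour hearts 2 fell and none rose, where 7.25% of all tested genes fell and 1.79% rose. Bak1, the companion of Bax at the mitochondrion, fell by 1.35 ± 0.34 and Bid, which activates both, by 2.47 ± 0.69 (edgeR adjusted p = 0.0372 and 0.0489). Bak1 stood at 25.6, 21.6 and 24.1 scaled CPM in tumour trained hearts, against 88.4, 66.7 and 25.7 in tumour hearts, high in tumour libraries 1 and 2 as Bax was. Bid stood at 2.01, 1.62 and 0.631 in tumour trained hearts, against 13.6, 8.28 and 1.57 in tumour hearts, so tumour library 3 lay within the tumour trained range, and with that library alone the difference of Bid was -0.16 ± 0.66. Without tumour library 3 edgeR called 7 and 9 genes of the family in the 2 comparisons (46.7% and 60%, beside 53% and 49.8% of all genes). Without trained library 2 it called 0 and 1, where 0.0602% and 9.34% of all genes were called. Without any one of the other 10 it called none. Bnip3, a hypoxia-induced mitophagy receptor, was chosen after its values were seen. With tumour library 3 alone it differed by 1.40 ± 0.16 in tumour against control and by -1.13 ± 0.16 in tumour trained against tumour hearts. These differences describe a single heart library. Bnip3 stood at 273, 365 and 326 scaled CPM in tumour trained hearts, at 328, 348 and 697 in tumour hearts and at 301, 241 and 254 in control hearts.

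The cell cycle genes that were called were high in the 2 libraries with melanoma transcripts. Of 19 G1 cyclins, their kinases and other inhibitors 17 were tested. In tumour against control hearts 4 rose and none fell, where 5.33% of all tested genes rose and 1.46% fell. In tumour trained against tumour hearts 4 fell and none rose, where 7.25% of all tested genes fell and 1.79% rose. Cdk2, a kinase that p21 inhibits, rose by 3.78 ± 0.79 and fell by 3.46 ± 0.77, and Ccne1, its cyclin partner, rose by 3.67 ± 0.72 and fell by 3.59 ± 0.72 (edgeR adjusted p = 0.039 for both rises and 0.0357 for both falls). E2f1 and Pcna were the other 2 in each comparison. Cdk2 stood at 11.4, 11.9 and 12.9 scaled CPM in tumour trained hearts, at 296, 89.0 and 12.8 in tumour hearts and at 9.96, 10.3 and 8.62 in control hearts, so tumour library 3 lay within the range of the tumour trained hearts. With that library alone the difference from control hearts was 0.42 ± 0.19 for Cdk2, 1.12 ± 0.54 for Ccne1, -0.59 ± 0.59 for E2f1 and 0.11 ± 0.15 for Pcna. Ccnd1 (cyclin D1), chosen after its values were seen, differed by -1.14 ± 0.20. These differences describe a single heart library. Left out in turn, tumour library 3 gave 10 and 11 called genes in the 2 comparisons (58.8% and 64.7%, beside 53% and 49.8% of all genes). Tumour library 1 gave 2 and 0, where 1.55% and 0.864% of all genes were called. Trained library 2 gave 0 and 4, where 0.0602% and 9.34% of all genes were called, and each of the other 9 libraries gave none.

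Of 13 tested genes of the p38 and JNK stress kinase pathway, which Gadd45 proteins feed, edgeR called none in either tumour group comparison. An unadjusted edgeR p under 0.05 was reached by 3 and 4 (23.1% and 30.8%) in tumour against control and tumour trained against tumour hearts. Over all genes the shares were 34.4% and 31.9%. DESeq2 called 1 lower in the first, where 5.12% of all genes were called lower. In the second it called 1 higher and 1 lower, where the shares over all genes were 4.58% and 14.0%. Without tumour library 3 edgeR called 6 of 14 in each, or 42.9%, below the 53% and 49.8% of all genes. Without trained library 2 it called 0 and 2, where 0.0602% and 9.34% of all genes were called. Of the 12 immediate early genes, Ier3, an anti-apoptotic response gene, rose by 0.93 ± 0.22 in tumour against control hearts and fell by 0.93 ± 0.22 in tumour trained against tumour hearts (edgeR adjusted p = 0.0418 and 0.0357). It stood at 28.1, 29.4 and 26.1 scaled CPM in tumour trained hearts, at 44.7, 61.0 and 53.4 in tumour hearts and at 39.1, 20.5 and 23.7 in control hearts. Fosb fell by 3.99 ± 0.93 in tumour against control hearts (edgeR adjusted p = 0.0414), but it stood at 1.91, 1.74 and 0.831 in tumour hearts, against 0.862, 34.0 and 38.2 in control hearts, so the difference rests on control libraries 2 and 3. Left out in turn, tumour library 3 gave 4 called immediate early genes in tumour against control hearts (33.3%, beside 53% of all genes). Control library 1 gave 2 (24 of 13291 over all genes), tumour library 1 gave 1 (1.55% of all genes) and each of the other 9 gave none.

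In the 3 comparisons without the tumour group and in the interaction, edgeR called no gene of these 6 lists, and over all tested genes only the interaction had calls (0.0235%, all lower). Of the 12 immediate early genes, 8 had an unadjusted edgeR p under 0.05 in trained against control hearts, beside 2.18% of all genes, with a list median of -2.02, and the median was 0.56 with control library 1 as the only control. DESeq2 called 1 immediate early gene lower there (0.0235% of all genes), and in the interaction it called 3 immediate early genes higher and 2 G1 genes lower (0.344% of all genes higher and 1.76% lower). Fosb differed by -4.02 ± 0.96 and Atf3 by -4.82 ± 1.20 between trained and control hearts (edgeR adjusted p = 1 for both).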

How the data were processed

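Gene levels came from 1 table of the whole series, deposited as estimated counts per gene (per library, 7.09 to 8.92% of them were fractional), which were rounded to whole numbers. The tools named in the submitters' processing notes are featureCounts and HISAT2 2.2.1, and the builds mm10 and GRCm39 both appear there; neither an annotation, a strand setting nor gene lengths are given in the sources used here. Reads of overlapping or near-identical genes could therefore not be told apart, and levels are not compared between genes. Of the gene IDs 17288 were found in RefSeq, and 24 symbols that had been turned into dates were restored from them.

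Counts were fitted with edgeR 4.0.16 (limma 3.58.1, R 4.3.3; TMM scaling, filterByExpr, quasi-likelihood test, 1 mean per group over all 12 libraries, 8 residual degrees of freedom), with a call where the Benjamini-Hochberg adjusted p was under 0.05. The SE was taken as the log2 difference over the root of F. Likeness between genes used log2 scaled CPM with a prior count of 2. DESeq2 1.42.0, other scalings and filters and left-out libraries were the alternatives, and the code was tested on simulated data. The 3 libraries of a group differed beyond counting noise and none was merged.

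Groups were read from the treatment label and replicate numbers from the titles. Same-numbered libraries did not deviate together (correlations from -0.268 to 0.241), so the numbers were not used as pairs. The 10 genes, the pathway and marker lists and the tests were chosen with earlier results of these data known. Of each list, up to 4 called genes in each direction are named by smallest p where the mean log2 CPM reached 1 (up to 2 uncalled ones where none was called), with the 5 genes closest to Cdkn1a and to Gadd45g, 1 of which is not reported here; Sesn1, Fas, Bnip3 and Ccnd1, named from the fit with 1 tumour library, were chosen after their values were seen, as were the uncalled genes of the closing observations.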

Additional observations from a re-analysis of the deposited data

Results flagged for a closer look

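Ppm1d lay on opposite sides in the 2 comparisons of training. All 3 tumour trained libraries, at 15.6, 12.1 and 13.9 scaled CPM, were below all 3 tumour libraries, at 18.4, 17.2 and 17.8, whereas all 3 trained libraries, at 13.7, 11.8 and 13.5, were above all 3 control libraries, at 10.6, 10.6 and 10.4. The log2 difference between the 2 effects was -0.66 ± 0.22 (SE), with an unadjusted edgeR p of 0.012 and an edgeR adjusted p of 0.29 over all genes, so the difference did not pass.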

How the results depend on the processing

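For tumour against control, 6 p53 targets were called, and DESeq2 and scaling by library size alone each gave 10. The stricter filter (1 CPM in 6 libraries) gave 2, and a fit of the 2 groups alone gave 0 (7 at an unadjusted p under 0.05). Over all genes, these fits in turn called 868, 2272 and 1971 of 12778, 598 of 12343 and 3 of 12505. Tumour library 3 as the only tumour library gave 2, and control library 1 as the only control library gave 0 (7 unadjusted). For tumour trained against tumour, 6 were called. DESeq2 gave 10, the stricter filter 3 and the fit of the 2 groups alone 0 (10 unadjusted). The main fit and these in turn called 1156 and 2378 of 12778, 1096 of 12343 and 2 of 12542 over all genes. For the other comparisons no p53 target was called by edgeR (4 in trained against control, 6 in tumour trained against control and 11 in the interaction at an unadjusted p under 0.05), but a fit of the 2 groups alone called 4 in tumour trained against control, and tumour library 3 alone without trained library 2 called 3 in trained against control, 9 in tumour trained against control and 2 in the interaction. Leaving out 1 library at a time gave 0 to 18 in both tumour group comparisons, 0 to 11 in the interaction and 0 in the others. The highest counts came without tumour library 3, where 7043, 6619 and 4002 of 13289 genes were called in those 3 contrasts. Fits with control library 1 as the only control, or without trained library 2 beside tumour library 3 alone, were chosen after seeing the data.

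The replicate block, a fit with the replicate number as a covariate although the numbers do not pair the libraries, called 0 p53 targets in each tumour group comparison (14 in tumour against control and 11 in tumour trained against tumour at an unadjusted p under 0.05) and left the Cdkn1a differences at 0.82 and -2.73.

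Cdkn1a differed by 0.71 for tumour against control, and by 1.48 with control library 1 alone; leaving out 1 library at a time gave 0.40 to 1.00. Its difference of -2.61 for tumour trained against tumour kept within the spread between libraries under all 22 alternatives, from -2.83 to -2.27 with 1 library left out. Over the 10 genes and 6 comparisons (60 values), tumour library 3 alone moved 14 beyond that spread and control library 1 alone moved 21. Scaling by library size alone shifted the median of all genes from 0.11 to 0.32 in tumour against control and from -0.04 to -0.22 in tumour trained against tumour. Genes near 2 scaled CPM, such as Bbc3, are limited by counting depth. The fit of only the groups compared has no interaction.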

Other observations

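Of the 33 tested p53 targets, Btg2, Plk3 and Tnfrsf10b were high in control libraries 2 and 3, the pair with 0.176% and 0.162% of counts on immediate early genes; they were chosen after their values were seen. Btg2, an anti-proliferative gene, stood at 135, 244 and 63.8 scaled CPM in tumour trained hearts, 30.4, 130 and 206 in tumour hearts, 44.0, 66.5 and 102 in trained hearts and 60.5, 439 and 454 in control hearts. Plk3, a stress-activated kinase, stood at 4.86, 9.82 and 7.68 in tumour trained hearts, 9.63, 6.40 and 3.51 in tumour hearts, 3.53, 5.38 and 8.83 in trained hearts and 4.60, 20.7 and 27.7 in control hearts. Tnfrsf10b, which encodes the receptor for the death ligand TRAIL, stood at 6.02, 6.04 and 6.94 in tumour trained hearts, 14.1, 9.33 and 7.20 in tumour hearts, 4.12, 4.94 and 6.49 in trained hearts and 4.21, 18.3 and 21.6 in control hearts. Control library 1 lay near the trained libraries for all 3. Tnfrsf10b and Btg2 differed by -1.50 ± 0.48 and -2.16 ± 0.80 between trained and control hearts, and edgeR called neither (adjusted p = 1 for both).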
